A study of Rattus norvegicus with 4 samples.

Results

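The gene set described here holds transferrin (Tf) and 7 other genes of cellular iron handling, Tfrc, Fth1, Slc11a2, Slc40a1, Aco1, Ireb2 and Cp. Its members are the gene probes of the array that carry one of these 8 names. All 8 genes had a probe, out of 34231 genes or transcripts that the array names, and the set came to 17 of its 41012 gene probes. All 17 were well above background on all 4 arrays and were among the 36696 probes tested. The set was chosen by the shCM1 minus shCTL difference of Tf, which was lower after Cmtr1 knockdown; the other 7 genes were added as its pathway. For Tf the values are therefore a description, with no test.

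The arrays compared cultured cortical neurons of Sprague Dawley rats with and without a knockdown of Cmtr1, whose product methylates the sugar beside the cap of an mRNA. The neurons came from E18.5 embryos of both genders. On day 2 in vitro they received a lentivirus with a control shRNA (shCTL) or with an shRNA against Cmtr1 (shCM1), and total RNA was collected on day 7. Each group had 2 arrays, from 2 independent experiments, and the groups differed by label only in the shRNA. The shRNA sequences were not used here, so an effect of lower Cmtr1 and an off-target effect of that shRNA cannot be told apart. Replicate 1 of both groups shared a slide and so did replicate 2. The shCTL array always had position 1 on its slide and the shCM1 array position 2, so position and group cannot be told apart either.

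Values are Agilent processed signals from 1-colour arrays. A level is the log2 signal minus the log2 of the 75th percentile of the same array, so a level of 0 is the 75th percentile. A difference is shCM1 minus shCTL on that log2 scale. The signal at the 75th percentile ran from 596.3 to 754.5, and 84.0% to 90.4% of probes were well above background. The Cmtr1 probe had levels of -1.43 and -1.86 in shCTL and -3.46 and -3.53 in shCM1, a difference of -1.85, which follows the labels. Of 10 neuronal markers, Rbfox3, Map2 and Snap25 among them, each was well above background on all 4 arrays.

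Transferrin is the secreted protein that carries ferric iron, and in the brain it is made mainly by oligodendrocytes and the choroid plexus. Cells take up iron-loaded transferrin through the transferrin receptor (Tfrc), and the transporter Slc11a2 (DMT1) moves the iron out of the endosome into the cytosol. Iron is stored in ferritin, whose heavy chain is Fth1, and leaves through ferroportin (Slc40a1), with ceruloplasmin (Cp) oxidising it outside the cell. The iron regulatory proteins, encoded by Aco1 and Ireb2, bind hairpins in the mRNAs of Tfrc, ferritin and some other iron genes when iron is low.

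The probes are 60-base oligonucleotides with 35.0% to 45.0% GC. The sequences of the Tf, Fth1 and Cp probes show which stretch of each mRNA the results rest on. The Tf value comes from 1 probe, A_44_P128147, that starts at base 1991 of the transferrin mRNA (NM_001013110) and is placed at chr8:108219377-108219436, minus strand. Of its 3 reading frames, 1 has no stop codon.
Tf, A_44_P128147: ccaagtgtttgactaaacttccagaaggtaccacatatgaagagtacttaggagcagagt
The Fth1 probes lie 5 bases apart, at chr1:212431850-212431909 and chr1:212431855-212431914 on the plus strand. They are not the same text where they overlap: 52 of 55 aligned bases match, and capitals mark the differing bases. Counted from the 5′ end of A_44_P351546, the changes to A_44_P292634 are C13T, G36A and A42G. Ferritin genes have many near-identical copies in the rat genome, so which copy each Fth1 probe reads is uncertain.
Fth1, A_44_P351546: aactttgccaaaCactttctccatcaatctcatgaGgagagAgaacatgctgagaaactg
Fth1, A_44_P292634: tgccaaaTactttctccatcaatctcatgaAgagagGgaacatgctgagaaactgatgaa
Of 4 Cp probes, A_44_P404836 and A_43_P11448 overlap on the plus strand at chr2:105129630-105129689 and chr2:105129670-105129729. Capitals mark the 20 bases that they share, so they are not independent readings of the gene. The third, A_44_P139939, lies at chr2:105118525-105118581.
Cp, A_44_P404836: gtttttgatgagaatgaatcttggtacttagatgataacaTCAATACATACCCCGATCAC
Cp, A_43_P11448: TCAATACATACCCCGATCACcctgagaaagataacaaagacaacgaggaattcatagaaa
Cp, A_44_P139939: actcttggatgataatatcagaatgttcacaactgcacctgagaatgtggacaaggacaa
Coordinates are those of the array annotation, whose header names the build rn4 (RGSCv3.4). They were not compared with a genome sequence, and no exon annotation of that build was used. The positions of a Tfrc and an Slc40a1 probe span 1655 and 979 bases, so these 2 probes cross an exon junction.

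Transferrin was lower on both slides after Cmtr1 knockdown. The Tf signal was 5200 and 4460 in replicates 1 and 2 of shCTL, and 2190 and 1610 in those of shCM1. The levels were 2.99 and 2.56 in shCTL and 1.88 and 1.11 in shCM1. Both shCM1 arrays lay below both shCTL arrays, and replicate 2 was the lower one in each group. The difference was -1.12 within slide 1 and -1.45 within slide 2, or 46.1% and 36.5% of the control on the same slide. Their mean was -1.29, which puts Tf at 41.0% of control. The mean level was 2.78 ± 0.30 in shCTL and 1.49 ± 0.54 in shCM1 (SD, n = 2 arrays each).

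Among the 36696 probes tested, 28 had a lower mean difference than Tf. Counting Tf, 13 were at least as low as Tf within slide 1 and also within slide 2. Without 1 of the 4 arrays the Tf difference was between -0.90 (without shCM1 replicate 2) and -1.67 (without shCM1 replicate 1). The group that lost an array no longer covered both slides, so a difference between slides enters these values. With all 4 arrays the Tf difference was -1.17 with normexp background correction and -1.23 or -1.24 with the other scalings.

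The other 16 probes were spread around 0. Within both slides 5 of them were lower and 4 higher, the remaining 7 were mixed, and the median difference was -0.02. Of all probes tested, 22.6% had a lower signal on both slides and 44.2% a higher one, and the median was 0.08. The share of all probes whose groups did not overlap is not given here. Where a member probe is said to separate the groups, that is a description. The 17 iron handling probes had a median replicate SD of 0.12, against 0.22 over all probes. The test was limma across all probes, first without and then with the slide as a block. Without the block it called 0 of 36696 probes, with 1109 at an unadjusted p under 0.05, and none of the 16 was among those. With the block 5.89% of all probes were called, 3.20% higher and 2.69% lower. Of the 16, 1 was called, a Cp probe, which is near the background share. An exact permutation test of 2 arrays against 2 cannot go below 0.33. Adjusted p-values below are from the slide-blocked limma fit, and intervals are its 95% intervals. Their error term is the disagreement of the differences within the slides, with the spread between slides removed. It rests largely on probes of like brightness.

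**Figure D1:**
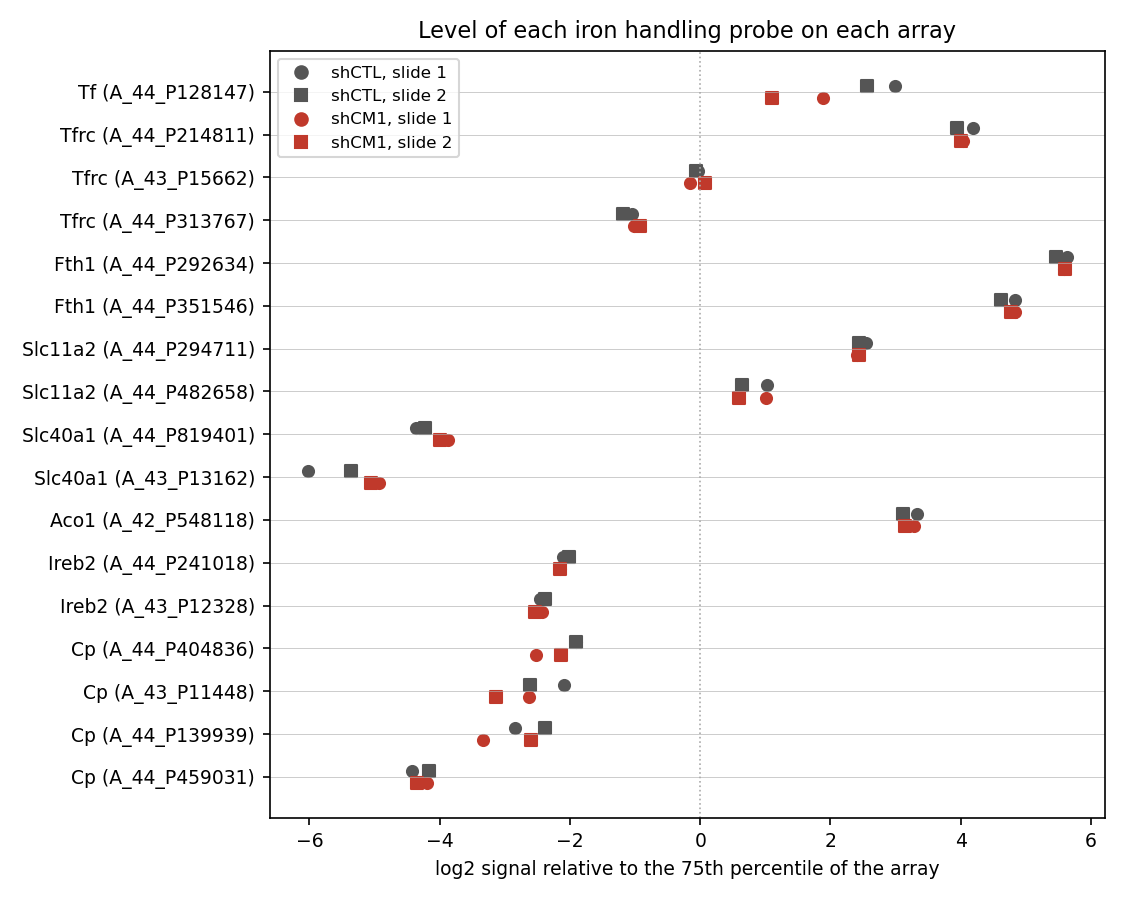
Levels of the 17 iron handling probes on each array, as log2 signal relative to the array's 75th percentile (horizontal axis), with 1 row per probe. Grey points are shCTL and red points shCM1; circles are slide 1 and squares slide 2. The shCM1 points of Tf, at 1.88 and 1.11, lie to the left of its shCTL points at 2.99 and 2.56, while those of Tfrc, Fth1, Slc11a2 and Aco1 nearly coincide with the controls.

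The transferrin receptor, which takes up the iron-loaded protein, had 3 probes with differences from -0.04 to 0.16, and none was called. A_44_P214811 (chr11:69976628-69976687, minus strand), had signals of 11900 and 11600 in shCTL and 9820 and 12000 in shCM1. It differed by -0.15 on slide 1 and by 0.06 on slide 2, and the groups overlapped. The interval of its mean difference ran from -0.22 to 0.14 (adjusted p = 0.797), so levels below 85.7% or above 110% of control lie outside it.

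Another Tfrc probe, A_43_P15662, was printed at 10 spots on every array and so gives a direct reading of spot noise. Its levels were -0.04 and -0.07 in shCTL and -0.15 and 0.08 in shCM1. The SD over its 10 spots was 0.0502 to 0.0779 within an array, and the coefficient of variation 3.44% to 5.17%. Its differences of -0.12 and 0.16 within the slides had opposite signs. Each is between means of 10 spots, which vary less than single spots, and each was larger than even the SD of single spots. Its mean difference was 0.02 (interval -0.21 to 0.25, adjusted p = 0.938).

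The third Tfrc probe, A_44_P313767, crosses an exon junction. Its levels were -1.05 and -1.19 in shCTL and -1.01 and -0.92 in shCM1. Both shCM1 arrays were above both shCTL arrays, with differences of 0.05 and 0.27 within the slides. It did not pass (mean difference 0.16, interval -0.09 to 0.40, adjusted p = 0.446).

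Slc11a2, the endosomal iron transporter, was read by 2 probes of different transcripts. A_44_P294711 (chr7:139094818-139094877, minus strand) had signals of 3780 and 4100 in shCTL and 3170 and 4040 in shCM1. Its levels were 2.54 and 2.44 against 2.41 and 2.44, and the groups overlapped. The mean difference was -0.06 (interval -0.25 to 0.13, adjusted p = 0.713). A_44_P482658 (chr7:139090121-139090180) had levels of 1.03 and 0.64 in shCTL and 1.01 and 0.59 in shCM1. Here the slides differed by more than the groups did, and the mean difference was -0.03 (interval -0.24 to 0.17, adjusted p = 0.872).

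For Fth1, the ferritin heavy chain, the intervals of both probes included 0. A_44_P292634 had signals of 32200 and 33400 in shCTL and 28700 and 36200 in shCM1. Its differences were -0.04 and 0.14 within the slides, with a mean of 0.05 (interval -0.11 to 0.22, adjusted p = 0.736). A_44_P351546, the probe shifted by 5 bases, had 18500 on both shCTL arrays and 17100 and 20300 in shCM1. Its mean difference was 0.08 (interval -0.08 to 0.25, adjusted p = 0.561). The groups overlapped for both probes, and the upper bounds of the intervals were 116% and 119% of control.

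The light chain of ferritin, Ftl1, is no member but completes the ferritin shell. Its 5 probes had differences from 0.14 to 0.26. None passed, with adjusted p-values from 0.0525 to 0.291, although the probe of highest signal passed after cyclic loess. They too read genes with near-identical copies.

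Slc40a1, the iron exporter ferroportin, was read by 2 dim probes. A_44_P819401 (chr9:44977923-44977982, minus strand) had signals of 31.6 and 40.2 in shCTL and 40.6 and 46.8 in shCM1. A_43_P13162, which crosses an exon junction, had 9.98 and 18.4 in shCTL and 19.5 and 22.3 in shCM1. For both probes both shCM1 arrays were above both shCTL arrays, and shCTL replicate 2 was the control nearest to them. Of all probes tested, 44.2% were higher within both slides, so a rise on both is common with this scaling.

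The Slc40a1 differences were 0.49 and 0.24 within the slides for A_44_P819401, with a mean of 0.37 (interval -0.04 to 0.77, adjusted p = 0.272). They were 1.10 and 0.30 for A_43_P13162, with a mean of 0.70 (interval 0.07 to 1.33, adjusted p = 0.176). Neither passed. The mean of A_44_P819401 was 0.15 to 0.17 with the 4 other scalings. That of A_43_P13162 was 0.18 with normexp, and 0.44 or 0.45 with quantile, cyclic loess and the authors' table. The mean of A_43_P13162 was 0.36 without shCTL replicate 1, whose signal was 9.98.

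Ceruloplasmin, the ferroxidase that works beside ferroportin, was lower on both slides by 3 of the 4 probes that carry its name. A_43_P11448 was the probe that passed the slide-blocked fit. Its signals were 153 and 122 in shCTL and 96.1 and 84.9 in shCM1. Its levels were -2.09 and -2.62 in shCTL and -2.63 and -3.13 in shCM1, so the nearest arrays of the groups were almost level. Within the slides it fell by 0.55 and 0.51 on the log2 scale. The mean difference was -0.53, or 69.4% of control (interval -0.81 to -0.24, adjusted p = 0.0323). Without the block its SE was 0.28 and its adjusted p was 1.

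That Cp call did not survive every setting. With normexp the difference of A_43_P11448 was -0.29 (limma with the block, adjusted p = 0.109), and without an intensity trend in the variance prior the adjusted p was 0.242. It had -0.26 without shCTL replicate 1, -0.28 without shCM1 replicate 2, -0.77 without shCM1 replicate 1 and -0.79 without shCTL replicate 2. In each of these the group that lost an array no longer covered both slides, so a difference between slides enters the value.

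The overlapping probe A_44_P404836 had signals of 174 and 203 in shCTL and 104 and 170 in shCM1. It differed by -0.62 on slide 1 and by -0.23 on slide 2, and both shCM1 arrays were below both shCTL arrays. The mean was -0.42, 74.6% of control, and did not pass (interval -0.71 to -0.14, adjusted p = 0.0775).

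A_44_P139939, farther upstream in the Cp mRNA, had signals of 90.6 and 145 in shCTL and 59.4 and 123 in shCM1. The groups overlapped, since replicate 2 was brighter than replicate 1 in both. Within the slides the differences were -0.48 and -0.23, with a mean of -0.35 (interval -0.66 to -0.05, adjusted p = 0.157). Without shCM1 replicate 1 that mean was 0.01. The fourth, A_44_P459031, was designed on a database mRNA described as bilitranslocase (Y12178) and has no genome position in the annotation. This probe may not read the Cp mRNA at all, which was not tested. It differed by 0.24 and -0.19 within the slides, with a mean of 0.02 (interval -0.41 to 0.46, adjusted p = 0.961).

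Aco1 and Ireb2 encode the iron regulatory proteins, whose mRNA targets include Tfrc and ferritin. The Aco1 probe A_42_P548118 (chr5:57591506-57591565, plus strand) had signals of 6560 and 6580 in shCTL and 5850 and 6620 in shCM1. Its mean difference rounded to 0.00, with -0.04 and 0.03 within the slides (interval -0.18 to 0.18, adjusted p = 0.989). This corresponds to 88.1% to 113% of control.

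Ireb2 had 2 dim probes. A_44_P241018 (chr8:58476082-58476141, plus strand) had levels of -2.11 and -2.02 in shCTL and -2.16 in both shCM1 arrays. Both shCM1 arrays were below the controls by a small margin, with a mean difference of -0.10 (interval -0.37 to 0.17, adjusted p = 0.693). A_43_P12328 had levels of -2.46 and -2.38 in shCTL and -2.43 and -2.53 in shCM1, which overlap. Its mean difference was -0.06 (interval -0.35 to 0.22, adjusted p = 0.827).

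**Figure D2:**
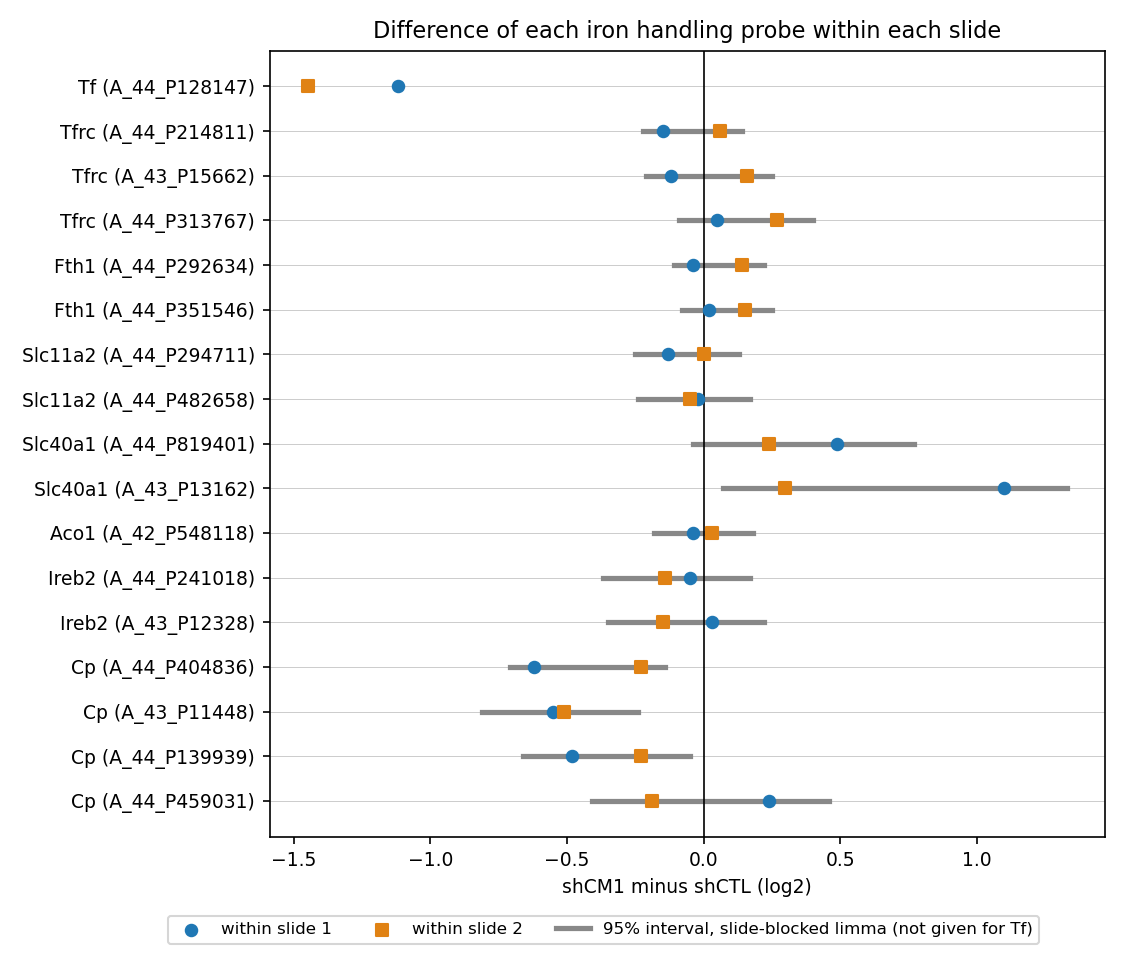
Difference of each of the 17 iron handling probes, shCM1 minus shCTL in log2, within slide 1 (blue circles) and slide 2 (orange squares), with 1 row per probe. Grey bars are 95% intervals of the slide-blocked limma fit, not drawn for Tf. Tf stands at -1.12 and -1.45, the Cp probes A_44_P404836, A_43_P11448 and A_44_P139939 lie left of 0, the Slc40a1 probes right of 0, and the rest lie around 0.

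Genes beside Tf on the chromosome were read by probes of the same arrays. Within 40 kb by the array's own coordinates lie Srprb, a subunit of the signal recognition particle receptor, and Rab6b, a small GTPase of the Golgi. The 2 Srprb probes had differences of -0.01 and -0.05, and the 3 Rab6b probes -0.05, -0.10 and -0.24. These 5 overlapped between the groups. The probes of 3 transcripts without a gene symbol lie there too. AI175259 (0.18) and AI007905 (0.35) were higher in both shCM1 arrays than in both controls, and TC606310 (-0.04) overlapped. None of the 8 was called.

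The 5 probes whose pattern over the 4 arrays was nearest to that of Tf were ranked by the root mean square distance of their levels, each centred on its own mean. Among 27913 candidates, 1 probe per gene, the nearest was Gchfr, the feedback regulator of GTP cyclohydrolase, at 0.0795. Next were the unnamed probe A_44_P902442 at 0.0814 and Aplp2, a relative of the amyloid precursor protein, at 0.119. C12h12orf76 followed at 0.135 and Rspo2, a secreted enhancer of Wnt signalling, at 0.140. Their differences were -1.21, -1.29, -1.06, -1.12 and -1.05 in that order, and a second Aplp2 probe had -0.72. They were selected for this pattern, so these values are a description over 4 arrays.

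**Figure D3:**
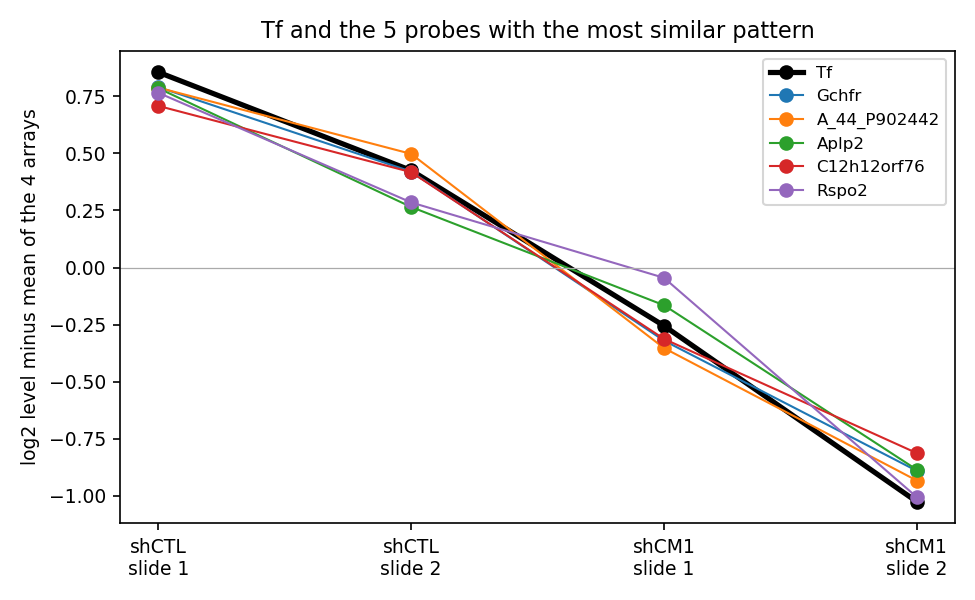
Level of Tf (thick black line) and of the 5 probes nearest to it on each of the 4 arrays, in log2 after subtracting the probe's own mean. Lines only join the points of a probe. All 6 are above 0 on both shCTL arrays and below 0 on both shCM1 arrays, and lowest on the shCM1 array of slide 2.

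Transferrin has known sources outside neurons, and the markers of these cell types were read on the same arrays. Of 18 measured oligodendrocyte lineage markers, 2 rose in the slide-blocked fit, among them Mbp, a myelin protein (0.52, adjusted p = 0.0198). Cspg4, the NG2 proteoglycan of the precursors, fell (-0.35, adjusted p = 0.0262). The median of the list was 0.25. Its summed signal, in multiples of the 75th percentile, was 51.7 and 60.2 in shCTL and 46.6 and 58.9 in shCM1. Mbp and Cspg4 were called with none of the 4 other scalings, which gave medians of 0.04 to 0.09. Ermn and Bmp4 were not well above background on every array. Of 10 choroid plexus markers none passed, with a median of 0.16 (-0.04 to 0.09 with the other scalings), and the summed signal was 0.995 and 1.11 in shCTL and 1.37 and 1.13 in shCM1. Prlr was not well above background on every array, and Ttr, a defining choroid plexus gene, had a difference of -0.12 (adjusted p = 0.827), with 0.74 within slide 1 and -0.98 within slide 2. Over genes, 1 probe each, the slide-blocked fit called 3.33% higher and 2.77% lower.

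The summed signal of the oligodendrocyte markers overlapped between the groups and was lower in shCM1 within each slide, although the median difference of the list was above 0. A sum weighs bright probes most, and Olig1, a transcription factor of the lineage, had differences of -0.16 and -0.06 at levels of 4.89 to 5.10. The summed signal of the choroid plexus markers was above both controls in both shCM1 arrays. Within slide 2 the margin was small, at 1.13 in shCM1 and 1.11 in shCTL. Ttr, of this list, differed by 0.74 within slide 1 and by -0.98 within slide 2. No sums are given with the other scalings, where the list median was -0.04 to 0.09. Whether the higher sum holds with them was not tested. Tf was below both controls in both shCM1 arrays. In RNA of a whole culture, fewer cells of a type and less RNA per cell cannot be told apart. The part of any cell type in the Tf difference was not tested.

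Other marker lists moved in part. Of 13 microglial markers 5 rose, Aif1, Tyrobp, Fcer1g, Cd68 and Cd14, and none fell, with a median of 0.67. The same 5 were called with each of the 4 other scalings, with medians of 0.28 to 0.47. Their summed signal was 12.3 and 12.5 in shCTL and 15.5 and 14.2 in shCM1, and Cx3cr1 and Tmem119 were not well above background on every array. Of 7 fibroblast and meningeal markers 3 rose, Col1a2, Dcn and Pdgfrb, with summed signals of 1.66 and 1.93 in shCTL and 2.00 and 2.53 in shCM1. Of these Dcn was called with every scaling. Lum and Slc6a13 were not well above background on every array. No marker of the 11 for astrocytes passed (median -0.04, sums 128 and 148 in shCTL, 140 and 146 in shCM1). None of the 10 for endothelium did (median 0.12, or -0.05 to 0.07 with other scalings, sums 1.16 and 1.26 in shCTL, 1.48 and 1.29 in shCM1), with Pecam1 and Tie1 not above background throughout. Of 10 neuronal markers Tubb3 fell (-0.37, not called with cyclic loess or in the authors' table), with a list median of -0.09 and sums of 325 and 258 in shCTL and 310 and 242 in shCM1.

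The rest of the iron and heme pathways was read with 76 genes in 4 lists, 1 probe per gene. In the slide-blocked fit 4 rose and 6 fell, or 13.2% of the 76 against 6.11% of all genes. The counts were 1 and 3 with quantile normalization and from the authors' table, 2 and 3 with cyclic loess, and 2 and 4 with normexp, where fewer of all probes were called too. Their median difference was 0.03, against 0.08 over all genes. Without the block none passed, with 3 at an unadjusted p under 0.05. The lists were written with earlier results of these data known, and Lcn2 was among the genes already seen to be lower, so the shares are a description.

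Of 17 genes of iron uptake, storage and release, 1 rose and 2 fell, with a median of 0.03 (-0.06 to 0.06 with the other scalings). Lcn2, lipocalin 2, a secreted protein that binds siderophore-bound iron, had levels of 3.22 and 2.81 in shCTL and 1.82 and 1.49 in shCM1. The arrays of the groups were well apart, and its difference of -1.36 put it at 38.8% of control (adjusted p = 5.36e-07). Lcn2 had been seen to be lower before the list was written, so its call is a description and not an independent test. Heph, hephaestin, a membrane ferroxidase related to ceruloplasmin, fell by 0.49 and 0.52 on the log2 scale within the slides (mean -0.50, adjusted p = 0.0345). With normexp Heph had -0.34 and an adjusted limma p of 0.0734. Steap4, a metalloreductase, rose by 0.47 (adjusted p = 0.0434) and passed under none of the 4 other scalings. A dim second Steap4 probe had -0.23, and the difference was 0.26 without shCTL replicate 1. Ftmt, the mitochondrial ferritin, was not well above background on any array.

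Of 14 regulators of iron 2 rose and none fell, with a median of 0.14. Both act in the control of hepcidin, the hormone that removes ferroportin from the cell surface, and both were dim. Tmprss6, a membrane protease that cleaves hemojuvelin, had levels of -4.16 and -3.58 in shCTL and -3.41 and -2.56 in shCM1 (difference 0.88, adjusted p = 0.00427). The shCM1 array of replicate 2 was the highest, and the difference was 0.46 without it and 0.47 with normexp. Hjv, hemojuvelin itself, had -5.21 and -5.20 in shCTL and -4.48 and -3.83 in shCM1 (difference 1.05, adjusted p = 0.0163). Its second probe had 0.66 and did not pass (adjusted p = 0.145). The Hjv call was lost with quantile normalization (limma with the block, adjusted p = 0.0774), cyclic loess (0.120) and the authors' table (0.0986), and its difference was 0.33 with normexp. Hamp, the hepcidin gene, had 0.44 and did not pass (adjusted p = 0.0665).

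Of 24 genes of heme synthesis, transport and breakdown, 1 rose and 2 fell, with a median of -0.05. Urod, uroporphyrinogen decarboxylase, fell by both of its probes, with differences of -0.34 (adjusted p = 0.0286) and -0.32 (adjusted p = 0.0494). Alas1, the enzyme that starts heme synthesis, had differences of -0.14 and -0.65 within the slides (mean -0.40, adjusted p = 0.0440). The Alas1 difference was -0.68 without shCM1 replicate 1 and -0.11 without shCM1 replicate 2. Slc25a38, a mitochondrial glycine carrier needed for that step, rose by 0.37 (adjusted p = 0.0439). Alas1 and Slc25a38 passed under none of the 4 other scalings, and Urod only with normexp. Hmox1, the inducible heme oxygenase, had -0.21 and did not pass (adjusted p = 0.260).

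Of 21 genes of mitochondrial iron and iron-sulphur cluster assembly, none rose and 2 fell, with a median of 0.03. Glrx5, a mitochondrial glutaredoxin that hands on iron-sulphur clusters, had levels of 3.1 and 2.74 in shCTL and 2.78 and 2.12 in shCM1. The groups overlapped across slides, and it fell by 0.32 and 0.62 on the log2 scale within them (mean -0.47, adjusted p = 0.00793). Its difference was -0.29 without shCTL replicate 1, -0.81 without shCM1 replicate 1 and -0.14 without shCM1 replicate 2. Nubpl, which delivers iron-sulphur clusters to respiratory complex I, fell by 0.44 and 0.34 (mean -0.39, adjusted p = 0.0353). Nubpl passed with normexp and with none of quantile normalization (limma, adjusted p = 0.0597), cyclic loess (0.0782) and the authors' table (0.0723). Lyrm4, Nfu1, Ciao1 and Mms19 of this list, Egln1 and Hephl1 were not measured here.

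**Figure D4:**
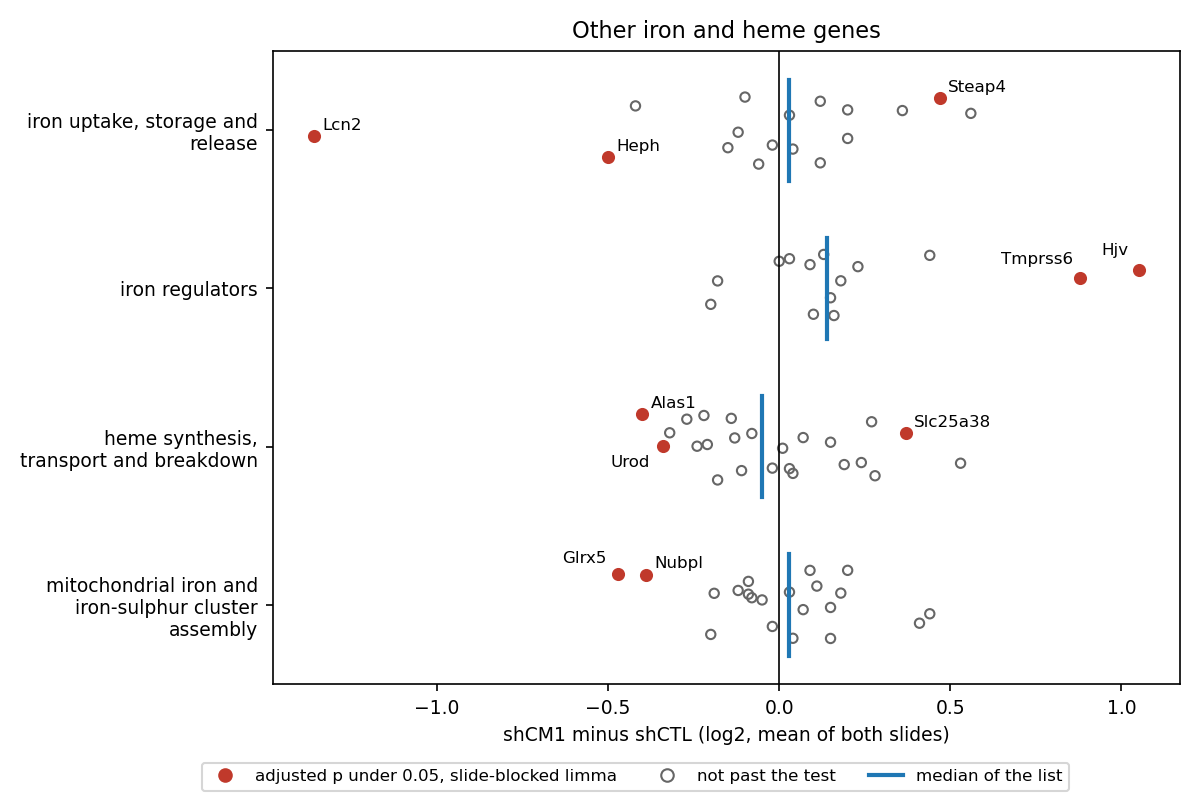
Differences of 76 other iron and heme genes, shCM1 minus shCTL in log2 as the mean of both slides, in 4 lists (rows, with points spread vertically for legibility). Red points are genes with an adjusted p under 0.05 in the slide-blocked limma fit, open points the others, and blue bars the medians of the lists, which run from -0.05 to 0.14. Lcn2 at -1.36 and Hjv at 1.05 are the outermost points.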

How the data were processed

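Per the file headers, Agilent Feature Extraction (10.7.3.1) gave the spot intensity of each deposited scanner file. The processed signal, already background-corrected, was used. The authors' deposited value table also held intensity values (medians 117.6 to 132.0, scale linear, step not given in the sources used here). It correlated at 0.9998 or above with its arrays and served as an alternative.

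Outlier-marked spots (86 to 98 per array) were left out, spots of a probe averaged, and log2 taken relative to each array's 75th percentile of the deposited intensity. Probes well above background on at least 2 arrays were tested, less 6 with no usable spot on an array. No spot was saturated. The number of arrays limits the precision. Names came from the files, and for the lists from a RefSeq table (GRCr8): the accession matched for 18971 probes, the symbol for 2995 and an older symbol for 203, and 18843 kept their own name.

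The comparison used R 4.3.3 and limma 3.58.1 (eBayes with an intensity trend, two-sided, Benjamini-Hochberg over all probes, threshold 0.05), first with no block, then blocked by slide (prior degrees of freedom 3.35 and 14.8). The method was tested on simulated data. Slides come from the file headers and coincide with the replicate numbers and scans. Across probes, arrays with the same number deviated together (correlation 0.713).

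Members and lists were chosen with earlier results of these data known. Named genes were all member probes, Cmtr1, list genes past the blocked fit (at most 8 per list) and the 5 probes nearest to Tf. Hamp, Hmox1, Ftl1, the markers and the neighbours of Tf were added as context after their values were seen. One marker gene is not reported here by name. Alternatives were other scalings, background correction, filters, variance prior, 1 probe per gene and leaving out each array.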

Additional observations from a re-analysis of the deposited data

How the results depend on the processing

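The Tf difference stayed below 0 under all alternatives run, from -0.90 to -1.67 over the arrays left out in turn. The replicate block, which pairs arrays of a slide, decided the counts of calls. Without it every setting called 0 probes, with 695 to 1462 at an unadjusted p under 0.05. With it 1175 probes were called higher and 986 lower, against 545 and 807 with quantile normalization, 369 and 602 with cyclic loess, 635 and 786 with normexp, 431 and 682 from the authors' table, then 1121 and 920 with 1 probe per gene. The share higher among the called was 54.4% in the first and 38.0% to 44.7% in the other scalings. Without an intensity trend the block called 0 higher and 0 lower, with 6289 at an unadjusted p under 0.05. The cause was not tested. Of the 16 member probes other than Tf the block called 1, also with quantile normalization, cyclic loess and the authors' table. It called 0 with normexp and without a trend (3 and 5 at an unadjusted p under 0.05). It also called 0 with 1 probe per gene, a fit that holds another, brighter Cp probe. Of the other iron genes the block called 4 higher and 6 lower, against 1 and 3 with quantile normalization, 2 and 3 with cyclic loess, 2 and 4 with normexp, 1 and 3 from the authors' table, 5 and 6 with 1 probe per gene, and 0 and 0 without a trend (13 at an unadjusted p under 0.05). No call of these genes was made without the block. The Hjv call held with normexp (0.33, adjusted p = 0.0488) and was lost with the 3 other scalings (0.81 to 0.83, adjusted p = 0.0774 to 0.12).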
